A study of Mus musculus with 10 samples.

Results

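The organic ion and drug transporters of the mouse kidney were taken as every gene in the deposited expression table whose symbol is Slc22a, Slc47a, Slco, Abcb, Abcc or Abcg followed by a digit. The rule found 46 of the 13837 genes in the table, of which 21 belong to Slc22a, 1 to Slc47a, 8 to Slco, 7 to Abcb, 7 to Abcc and 2 to Abcg. Expression was measured in whole kidneys of 3-month-old mice, with 1 library per mouse, 5 of genotype +/+ and 5 of genotype KI/+. The KI/+ mice carry, beside a wild-type copy of Rragc, a copy edited by CRISPR that encodes RagC S74N, a form of the RagC GTPase that keeps nutrient signaling to mTORC1 active. The +/+ mice carry no edited copy. The edit is present in every cell of the body. Values of a whole kidney therefore do not separate an effect within tubule cells from one that reaches the kidney through the blood. The study describes its mice as C57BL/6 of both sexes. Sex and litter of the mice in these libraries are not given in the sources used here, but Y-linked transcripts were present in all 10 libraries.

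These transporters move drugs, metabolites, bile acids, urate and toxins across the cells of the proximal tubule, the nephron segment that secretes organic ions into the urine. Organic anions are taken up from the blood across the basolateral membrane by OAT1 and OAT3 in exchange for dicarboxylates such as α-ketoglutarate, which the sodium-dicarboxylate cotransporter NaDC3 brings into the cell. They leave across the apical membrane into the urine through ATP-driven pumps such as MRP2, MRP4 and BCRP. Organic cations enter through carriers such as OCT2 and leave through the proton exchanger MATE1. The members were therefore read as 26 uptake carriers, 11 efflux carriers, 5 pumps of mitochondria or lysosomes, 1 subunit of a potassium channel and 3 members of Slc22a without an agreed transport role in the plasma membrane.

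The libraries were made with the QuantSeq 3′ method, which reads the end of each transcript next to the poly(A) tail, so that a transcript gives about the same number of reads whatever its length. Reads on genes numbered 6501552 to 7856363 in +/+ mice (median 6728400) and 6872310 to 7996087 in KI/+ mice (median 7256462). Values are normalized counts, the reads of a gene divided by a size factor for the library. Differences were tested with limma on log2(normalized count + 1) across the 13197 genes with at least 10 normalized counts in at least 5 mice, and 0.05 was the threshold for a Benjamini-Hochberg adjusted p over all of these genes. A log2 fold change is given as KI/+ minus +/+ throughout, and the added count makes it too small for genes with few reads. The codes that name the libraries fall into 2 runs of numbers, the first with +/+ replicates 1 and 2 and KI/+ replicate 1 and the second with the other 3 +/+ and 4 KI/+ mice, and what the runs mark is not stated. Of the 46 members, 44 passed the filter, and Slc22a3 and Slc22a29 did not. All 10 libraries held the defining transcripts of the proximal tubule, with Slc34a1 between 26565 and 33360 normalized counts. Rragc itself was measured at 347, 247, 244, 293 and 297 in +/+ mice and 199, 248, 214, 229 and 189 in KI/+ mice (log2 fold change -0.40, limma adjusted p = 0.0678), but reads at the 3′ end of its transcript do not cover the edited codon and check no label.

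Of the 44 tested members, 2 differed between genotypes, and both were higher in KI/+ kidneys. They are Slc22a6, the gene of OAT1, and Abcc4, the gene of the efflux pump MRP4. Of all genes tested, 3.69% passed this threshold, 1.67% as higher and 2.02% as lower in KI/+ mice, so 2 of 44 members is close to the share of all genes. edgeR and DESeq2 on recovered reads called the same 2 members. The same 2 of the 44 members lay higher in KI/+ mice without overlap between genotypes, against 2.29% of all genes tested, and 0 of 44 lay lower in this way, against 2.71%. The untested Slc22a29 did not overlap either and lay lower in KI/+ mice. At an unadjusted p under 0.05, 12 of the 44 members passed (27.3%), against 15.4% of all genes, and 10 of the 12 were higher in KI/+ mice. Among all genes, 7.96% were higher and 7.43% lower at this unadjusted threshold. Whole tissue was measured, so fewer cells of a type and less RNA per cell cannot be told apart for any of these genes.

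**Figure D1:**
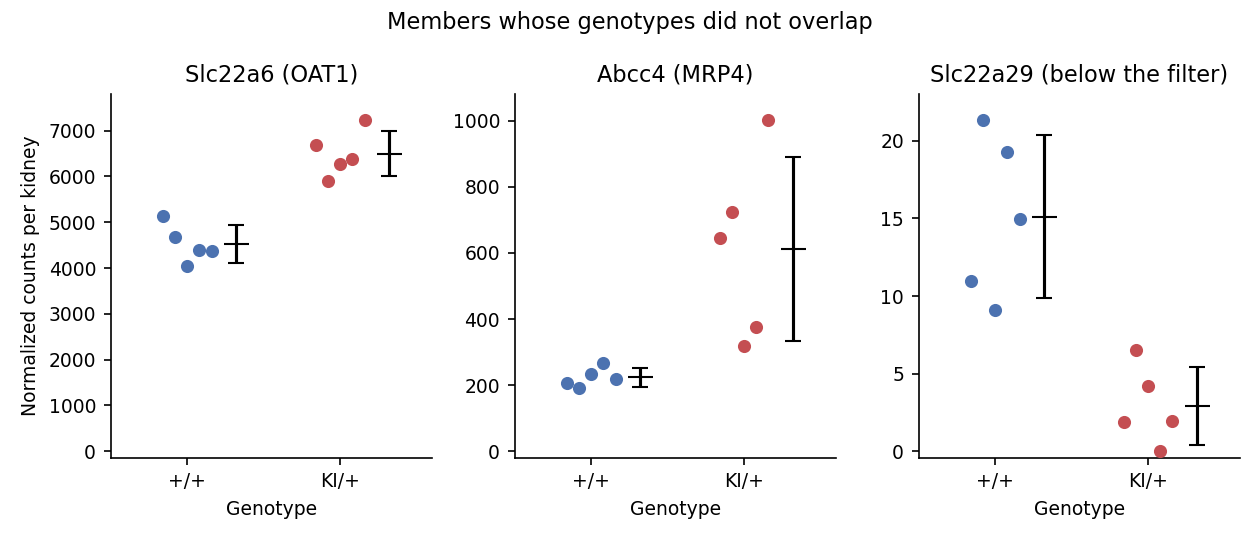
Normalized counts per kidney (y axis, linear from 0) of Slc22a6, Abcc4 and Slc22a29 in 5 +/+ mice (blue points) and 5 KI/+ mice (red points), with the mean and SD of each genotype as a black bar. The genotypes do not overlap in any of the panels, the KI/+ values of Abcc4 spread from 317 to 1002, and Slc22a29 stays below 22 normalized counts in every mouse.

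Slc22a6 encodes OAT1, the carrier that takes p-aminohippurate, many acidic drugs and uremic solutes from the blood into proximal tubule cells. The values were 5137, 4672.5, 4052, 4388.5 and 4371 in +/+ mice and 6689, 5910.3, 6271, 6389 and 7234 in KI/+ mice. Every KI/+ mouse lay above every +/+ mouse, and neither genotype held a mouse that stood apart. The mean was 4524 ± 407 in +/+ and 6498.5 ± 497 in KI/+ mice (SD, n = 5 each), a ratio of 1.44. The log2 fold change was 0.52 (SE 0.08, 95% interval 0.35 to 0.70, limma adjusted p = 0.00105). It passed in every alternative run for it, with fold changes of 0.45 to 0.59 on the log2 scale across settings and 0.48 to 0.57 when each mouse was left out in turn. Within the second run of codes alone it was 0.59 (adjusted p = 0.00279, in a range of 1.45e-07 to 0.00279 over settings).

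Slc22a8 encodes OAT3, a basolateral anion exchanger that shares many substrates with OAT1, and it is the protein-coding neighbour of Slc22a6 on chromosome 19. Normalized counts were 2571, 1959, 2066, 2672 and 2384 in +/+ mice and 3040.0, 2649, 1791, 2192 and 2988 in KI/+ mice. The genotypes overlapped, and the lowest of all 10 values was that of KI/+ replicate 3. The log2 fold change was 0.10, with an interval of -0.18 to 0.38 (limma adjusted p = 0.788). Within each mouse, the log2 ratio of Slc22a6 to Slc22a8 was 0.96 ± 0.20 in +/+ and 1.38 ± 0.29 in KI/+ mice (SD, n = 5 each). The genotypes overlapped in this ratio. The difference of 0.42 had p = 0.0238 (exact permutation test, two-sided). That p was also 0.0238 when adjusted over the 3 ratios that were compared in this way, all chosen with their values known. Since Slc22a6 had been called from the same values, this p is no separate evidence.

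The bases before a start site of each of these neighbours are shown because the genes lie side by side and differ in their values. They come from the RefSeq promoter table on GRCm38.p6, a different build from that of the counts, in which the windows of Slc22a8 (chr19:8593062-8593181, plus strand) and Slc22a6 (chr19:8617876-8617995, plus strand) end at the last base before it.
Slc22a8: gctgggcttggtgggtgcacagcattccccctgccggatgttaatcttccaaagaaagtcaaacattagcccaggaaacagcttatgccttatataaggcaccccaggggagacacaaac
Slc22a6: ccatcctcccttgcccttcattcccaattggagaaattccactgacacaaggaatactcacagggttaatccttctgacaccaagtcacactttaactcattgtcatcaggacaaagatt
Windows of 300 bases, 250 before and 50 after a start site, were found in that table for 36 of the 46 members, with 44 windows because some genes have several start sites, among 32851 windows in all.

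Slc22a7, the gene of the basolateral anion carrier OAT2, was measured at 319, 466.01, 383, 223 and 317 in +/+ mice and 459, 262, 543, 419 and 317 in KI/+ mice. Its genotypes overlapped almost fully, and the log2 fold change was 0.22 (interval -0.18 to 0.62, limma adjusted p = 0.655). Slc22a12 encodes URAT1, which takes urate back from the urine across the apical membrane. It was measured at 5609, 6578, 3837.5, 4267 and 4988 in +/+ mice and 6886, 6401, 4798, 5833.5 and 5702 in KI/+ mice. The genotypes overlapped here too, with a log2 fold change of 0.24 (interval -0.03 to 0.52, limma adjusted p = 0.396). Among the 3 mice of the first run of codes the lowest value of Slc22a12 was 5609, and among the other mice only KI/+ replicates 2, 4 and 5 exceeded it. Slc22a19, the gene of the apical anion carrier OAT5, was measured at 79.4, 137, 62.4, 116 and 104 in +/+ mice and 200.1, 170.0, 33.6, 129 and 69.1 in KI/+ mice, and its KI/+ values spread on both sides of the +/+ values (log2 fold change 0.07, interval -0.69 to 0.83).

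Of the carriers of organic cations, Slc22a2 encodes OCT2, the basolateral uptake carrier for metformin, cisplatin and creatinine. Its normalized counts were 3197, 3283, 6458, 4372.5 and 4549.5 in +/+ mice and 4528, 3569.8, 6794, 5408.5 and 6543 in KI/+ mice. The spread within each genotype exceeded the difference between them, with a log2 fold change of 0.31 (interval -0.08 to 0.69, limma adjusted p = 0.477). Slc47a1 encodes MATE1, the apical exchanger that passes the same cations into the urine. It was measured at 4247, 4051, 4235.5, 4524 and 4414 in +/+ mice and 4473, 4118, 4668, 4348 and 3732 in KI/+ mice, with a log2 fold change of -0.01 and an interval of -0.18 to 0.15 (limma adjusted p = 0.965). Slc22a3, the gene of OCT3, was too low for the test, at 1.83, 0.889, 10.2, 6.43 and 5.34 in +/+ mice and 13.3, 5.57, 7.36, 10.9 and 20.4 in KI/+ mice, which were 1 to 9 reads in +/+ and 6 to 21 reads in KI/+ mice. Without the filter its log2 fold change was 1.23 (limma adjusted p = 0.231, and 0.212 to 0.231 over the tools run).

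The carriers of carnitine and zwitterions lie next in the family. Slc22a5 encodes OCTN2, which recovers carnitine from the urine, and was measured at 206, 237, 163, 193 and 247 in +/+ mice and 215, 249, 154, 163 and 248 in KI/+ mice. No difference was detected (log2 fold change -0.04, interval -0.35 to 0.28). Slc22a4 encodes the ergothioneine carrier OCTN1 and was measured at 97.7, 82.7, 98.7, 71.8 and 89.7 in +/+ mice and 96.8, 105, 130.3, 103 and 100.2 in KI/+ mice. All KI/+ values but that of replicate 1 lay above the highest +/+ value of 98.7, and the log2 fold change of 0.28 (interval 0.0014 to 0.56) did not pass (limma adjusted p = 0.322). Reads of Slc22a5 and Slc22a21 are uncertain between these genes, since 74.1% of the 50-base stretches in the last 500 bases of Slc22a5 transcripts also occur in Slc22a21.

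Several Slc22a genes are neighbours on mouse chromosome 19. In RefSeq on GRCm38.p6 the protein-coding genes in that stretch follow each other as Slc22a26, Slc22a27, Slc22a28, Slc22a29, Slc22a30, Slc22a8 and Slc22a6, of which Slc22a27 was not analysed here. Slc22a26 to Slc22a30 encode anion carriers of rodents that are close relatives of the OATs. Slc22a28 was measured at 725, 770.2, 675, 706 and 755 in +/+ mice and 736, 717, 783, 764 and 603 in KI/+ mice. Slc22a30 was measured at 726, 769, 589, 566 and 614 in +/+ mice and 680.1, 731, 644, 707 and 526 in KI/+ mice. Their log2 fold changes were -0.02 (interval -0.20 to 0.17) and 0.01 (interval -0.22 to 0.24), and reads of Slc22a28 are uncertain because 47.7% of its 3′ stretches of 50 bases are shared with Slc22a30.

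Slc22a29, which lies between them, was measured at 11, 21.3, 9.07, 19.3 and 14.9 in +/+ mice and 1.9, 6.5, 4.2, 0 and 1.95 in KI/+ mice. These are 8 to 24 reads in +/+ and 0 to 7 reads in KI/+ mice, and the genotypes did not overlap. The ratio of the means was 0.192. It fell below the filter because +/+ replicate 3 (9.07) and all KI/+ mice lay under 10 normalized counts. It therefore had no test in the fit of record, and its direction was known when the following fits were made. Without the filter, its log2 fold change was -2.27 (limma adjusted p = 0.0132), with -2.34 by edgeR and -2.38 by DESeq2 on reads (adjusted p = 0.00896 and 0.000645), and these count tests were chosen after seeing the data. Within each mouse, the log2 ratio of Slc22a29 to Slc22a28 was -5.56 ± 0.44 in +/+ and -7.81 ± 1.12 in KI/+ mice (SD, n = 5 each, exact permutation p = 0.00794, the smallest that 5 against 5 mice allow, and 0.0119 over the 3 ratios). This p largely restates the lack of overlap of Slc22a29 itself, and the pair was chosen with its values known, so it is no separate evidence. With counts this low the size of the difference is imprecise, and 13.3% of the 3′ stretches of Slc22a29 are shared with Slc22a27.

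Stretches of 110 bases before the start sites of these 3 genes are shown because the sequences are closely related while the values of the genes are not. They lie at chr19:8132013-8132122 for Slc22a28, chr19:8218912-8219021 for Slc22a29 and chr19:8405142-8405251 for Slc22a30, all on the minus strand of GRCm38.p6, and begin at a shared stretch of letters.
Slc22a28: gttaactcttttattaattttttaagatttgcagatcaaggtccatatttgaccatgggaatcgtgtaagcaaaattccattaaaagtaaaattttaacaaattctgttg
Slc22a29: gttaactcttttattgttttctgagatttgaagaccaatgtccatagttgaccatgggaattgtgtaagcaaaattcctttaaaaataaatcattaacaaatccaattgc
Slc22a30: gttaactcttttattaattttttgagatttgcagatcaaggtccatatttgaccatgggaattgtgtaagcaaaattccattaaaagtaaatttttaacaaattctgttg
Over whole windows, Slc22a28 and Slc22a30 were identical at 98% of 294 aligned bases, and Slc22a29 matched them at 80.2% of 263 and 78.6% of 271 bases.

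Slc22a26, the first gene of the row, was measured at 73, 139.6, 43.1, 49.3 and 48 in +/+ mice and 157, 105, 117, 79.1 and 84.7 in KI/+ mice. Its +/+ replicate 2 lay above 4 of the 5 KI/+ values, and the log2 fold change of 0.72 (SE 0.27) did not pass (limma adjusted p = 0.175). It passed when the run of codes was a covariate (0.91, adjusted p = 0.00515), within the second run alone (1.01, adjusted p = 0.00996) and without +/+ replicate 2 (0.996, adjusted p = 0.0102), while over all settings its adjusted p ran from 0.00515 to 0.475.

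**Figure D2:**
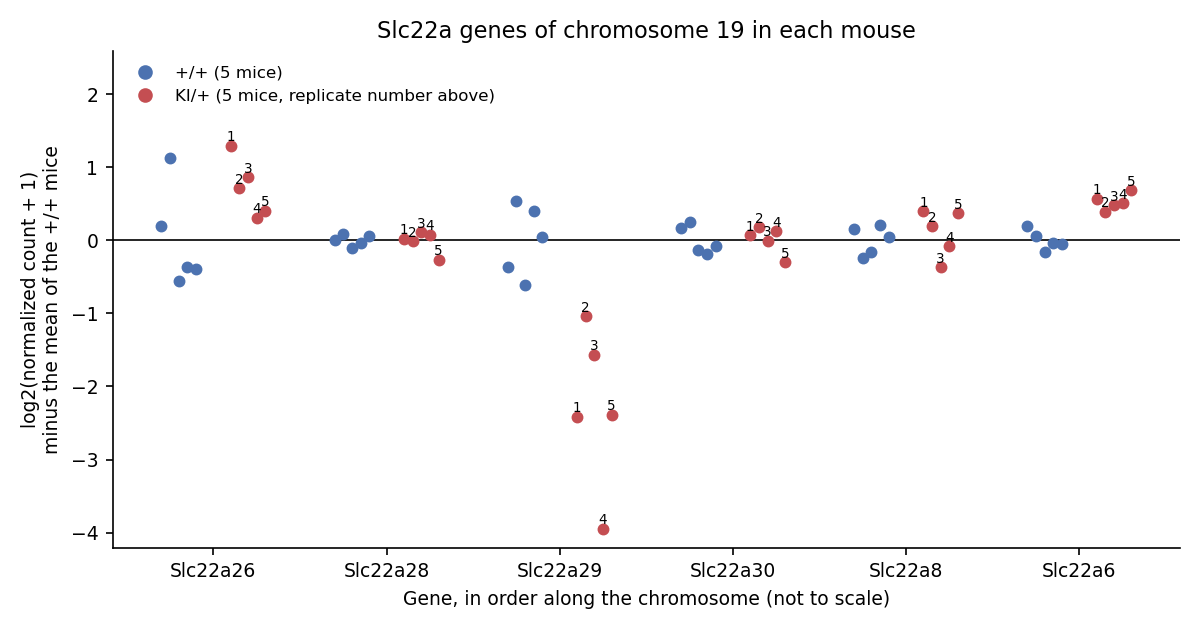
Log2(normalized count + 1) minus the mean of the +/+ mice (y axis) for 6 Slc22a genes in their order along chromosome 19 (x axis, not to scale), with 5 +/+ mice in blue and 5 KI/+ mice in red under their replicate numbers. The KI/+ points lie below all +/+ points for Slc22a29 and above all for Slc22a6, and overlap them for the other 4 genes.

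The Slco family encodes the OATPs, sodium-independent carriers of bile acids, steroid and thyroid hormone conjugates and prostaglandins. Of its 8 members 0 passed by limma, edgeR or DESeq2 (2 at an unadjusted limma p under 0.05), and their log2 fold changes ran from -0.31 (Slco1a4) to 0.37 (Slco4a1), with a median of 0.14. Slco1a4 was low, at 21, 9.78, 13.6, 23.6 and 18.2 in +/+ mice and 16.1, 6.5, 23.1, 9.88 and 15.6 in KI/+ mice, and its genotypes overlapped (limma adjusted p = 0.739). Slco1a1, an apical carrier of steroid conjugates, was measured at 917, 1064.5, 1087.5, 934 and 813 in +/+ mice and 717, 856, 1632, 1116 and 500.1 in KI/+ mice. Its means were nearly equal, at 963 ± 113 and 964 ± 435 (SD, n = 5 each), but the coefficient of variation was 11.8% in +/+ and 45.1% in KI/+ mice, where replicate 3 was highest and replicate 5 lowest. Slco1a6 was measured at 749, 815, 621, 679.6 and 700.4 in +/+ mice and 987, 787, 773, 704 and 1073 in KI/+ mice (log2 fold change 0.27, limma adjusted p = 0.256). Slco2a1, the prostaglandin carrier, was measured at 129, 157, 95.3, 158 and 139 in +/+ mice and 171, 146, 161, 174 and 180.0 in KI/+ mice, and 4 of the 5 KI/+ values lay above the highest +/+ value (log2 fold change 0.31, limma adjusted p = 0.262). Slco4c1, a basolateral carrier of digoxin and uremic toxins, was measured at 69.4, 81.8, 137, 85.8 and 67.3 in +/+ mice and 77.8, 105, 95.6, 101 and 74.9 in KI/+ mice. Only +/+ replicate 3 stood apart, and the log2 fold change was 0.08 (interval -0.30 to 0.45).

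Among the efflux carriers, Abcc4 passed. MRP4 is an apical pump that exports urate, cyclic nucleotides, prostaglandins and drug conjugates taken up by the OATs. Abcc4 was measured at 205, 191, 235, 267 and 219 in +/+ mice and 646, 724, 317, 375 and 1002 in KI/+ mice. The genotypes did not overlap, and the KI/+ mice fell apart into 3 high values and 2, of replicates 3 and 4, that lay closer to the +/+ range. The mean was 223 ± 29.2 in +/+ and 613 ± 278 in KI/+ mice (SD, n = 5 each), a ratio of 2.74, and the coefficient of variation was 13.1% and 45.4%. The log2 fold change was 1.33 (SE 0.23, 95% interval 0.85 to 1.82, limma adjusted p = 0.00177). It lay between 1.13 and 1.54 when each mouse was left out in turn, and passed each time. Among the 7 mice of the second run of codes it was 1.18 and did not pass (adjusted p = 0.0613, in a range of 0.000219 to 0.0613 over settings).

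The 250 bases before the start site of Abcc4, on the minus strand at chr14:118706220-118706469 of GRCm38.p6, are shown because its log2 fold change was the largest of the 44 tested members. The first capitals mark CACGTG, the core bound by MiT/TFE factors such as Tfeb, and the later capitals mark TGACNNNGC, the antioxidant response element, read on the opposite strand.
Abcc4: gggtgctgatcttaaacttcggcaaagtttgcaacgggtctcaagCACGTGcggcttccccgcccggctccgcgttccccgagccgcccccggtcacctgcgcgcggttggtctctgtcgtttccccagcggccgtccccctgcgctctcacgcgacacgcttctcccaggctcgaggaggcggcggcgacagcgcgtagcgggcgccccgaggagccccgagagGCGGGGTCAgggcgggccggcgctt
CACGTG lay at -205 to -200, counted from the start site, and occurred on either strand in 2 of the 44 windows of members, 1 each of Abcc4 and Slc22a4, against 7.15% of all windows. TGACNNNGC lay at -25 to -17 and occurred in 7 of the 44 windows (2 each of Abcc4 and Abcc10 and 1 each of Abcb1a, Abcc2 and Slco4c1), against 12.4% of all windows. CAAAGTCCA, a site of the tubule factor HNF4, occurred in 0 of the 44 windows and in 0.475% of all windows. The matches are letters only and say nothing of binding.

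Abcc2 encodes MRP2, the other apical pump for anions and glutathione conjugates. Normalized counts were 1446, 1369.6, 1793, 1959.5 and 1744 in +/+ mice and 1727, 1898, 2175, 2159.6 and 2134 in KI/+ mice. Of the KI/+ values, 3 lay above the highest +/+ value of 1959.5 and 2 below it, and the log2 fold change of 0.29 (interval 0.07 to 0.50) did not pass (limma adjusted p = 0.16). Within each mouse, the log2 ratio of Abcc4 to Abcc2 was -2.89 ± 0.07 in +/+ and -1.84 ± 0.76 in KI/+ mice (SD, n = 5 each), without overlap (exact permutation p = 0.00794, and 0.0119 over the 3 ratios). This p largely restates the lack of overlap of Abcc4 itself, and the pair was chosen with its values known, so it is no separate evidence. The basolateral pumps of the family gave no call. Abcc1, Abcc5 and Abcc6 had log2 fold changes of -0.09, -0.24 and -0.11, with adjusted p between 0.369 and 0.931, and Abcc3 was not analysed here.

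Abcb1a and Abcb1b together encode mouse P-glycoprotein, the pump of bulky cationic and neutral drugs. Abcb1a was measured at 14.6, 19.6, 31.8, 35.4 and 34.2 in +/+ mice and 15.2, 36.2, 31.5, 48.4 and 39.9 in KI/+ mice. Abcb1b was measured at 21.9, 10.7, 37.4, 32.2 and 36.3 in +/+ mice and 36, 39, 37.8, 57.3 and 40.9 in KI/+ mice. Abcb1b had a log2 fold change of 0.69 (interval 0.10 to 1.29, limma adjusted p = 0.228) and 4 KI/+ values above the +/+ maximum of 37.4, and Abcb1a had one of 0.31 (limma adjusted p = 0.7). Both are low, and a few reads set their values. Abcg2 encodes BCRP, an apical pump for urate and sulfate conjugates. It was measured at 1991, 2001, 1908.5, 2112 and 2007 in +/+ mice and 2178, 2104, 2184, 1966 and 2010.3 in KI/+ mice, with coefficients of variation of 3.61% and 4.69%. The interval of its log2 fold change, -0.09 to 0.21, was among the narrowest of the members (limma adjusted p = 0.766), and the estimate of 0.06 became -0.003 under quantile normalization.

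The members inside the cell and those without an agreed role came closest to the threshold. Abcb6, a pump of porphyrins, was measured at 93.1, 108, 68, 85.8 and 81.1 in +/+ mice and 152, 118, 122, 94.9 and 122 in KI/+ mice (log2 fold change 0.48, limma adjusted p = 0.0901). It passed with the covariate for the run of codes (adjusted p = 0.0128, range over settings 0.0128 to 0.0971), but 96.9% of its 3′ stretches are shared with Gm29253, so its reads are uncertain. Other pumps of this group, Abcb8, Abcb9 and Abcb10, had log2 fold changes of 0.17, -0.11 and 0.02. Slc22a17, named as a receptor of the iron-carrying protein lipocalin, was measured at 246, 204, 240.4, 232 and 267 in +/+ mice and 149, 204, 191, 212.5 and 148 in KI/+ mice (log2 fold change -0.40, limma adjusted p = 0.0858). Slc22a23 was measured at 146, 183, 186, 184 and 207 in +/+ mice and 133, 137, 122, 94.9 and 176 in KI/+ mice (log2 fold change -0.47, limma adjusted p = 0.092). These were the 2 tested members with the lowest fold changes. Slc22a17 passed with the covariate (adjusted p = 0.0295, range 0.0295 to 0.175), and Slc22a23 passed without KI/+ replicate 5 (adjusted p = 0.0212, range over left-out mice 0.0212 to 0.24).

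**Figure D3:**
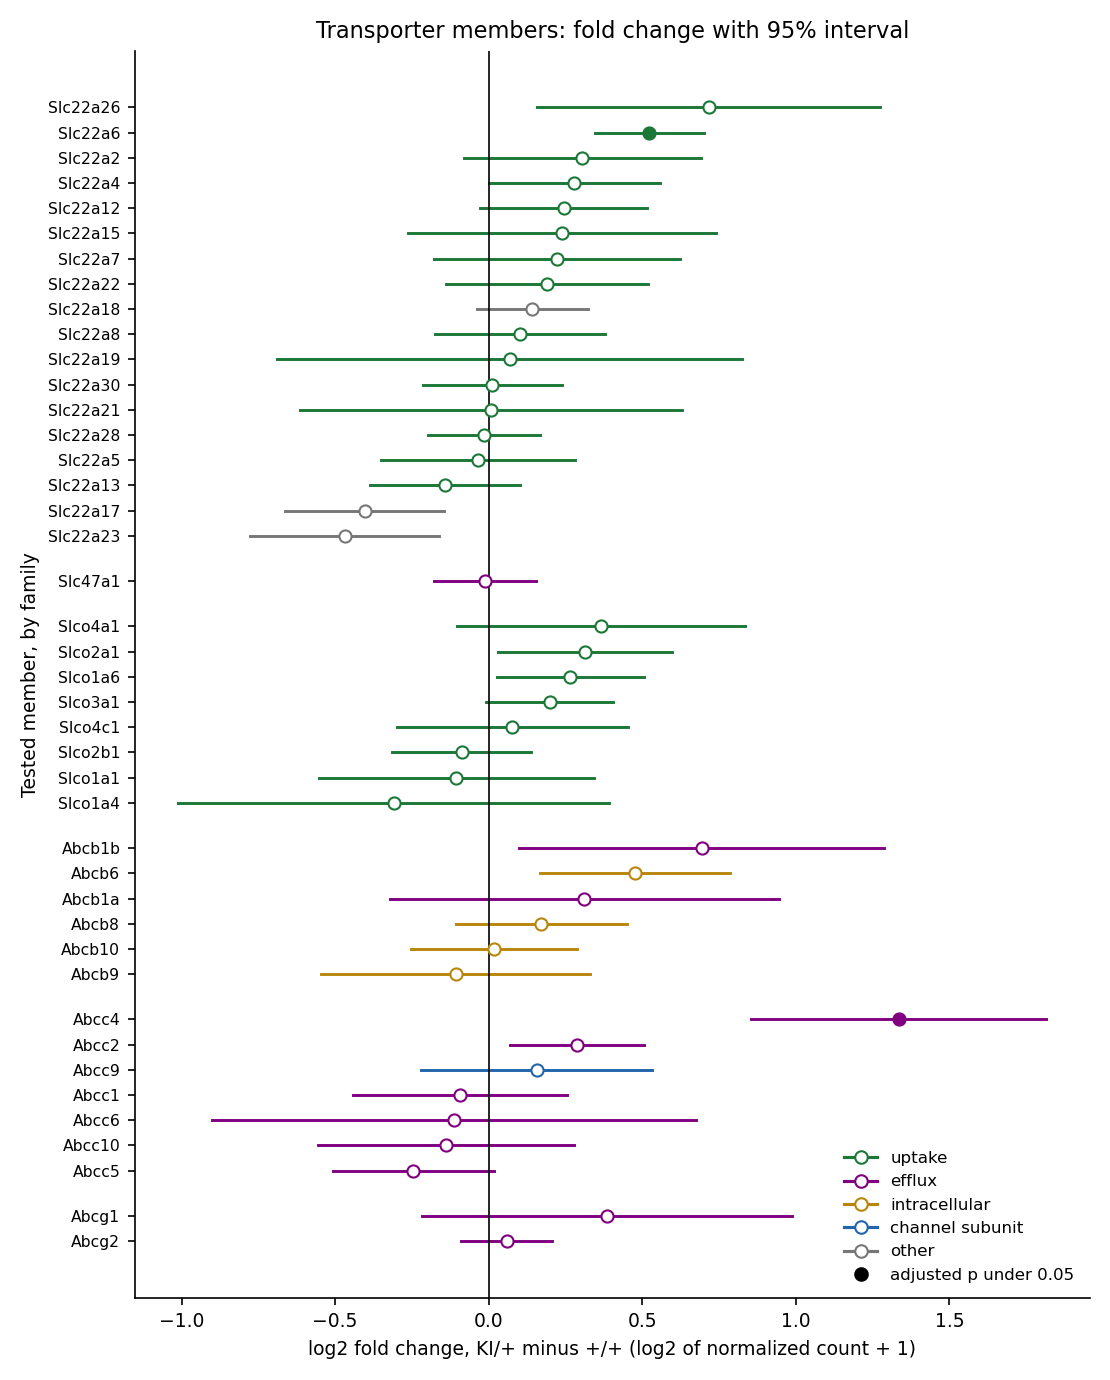
Log2 fold change of KI/+ minus +/+ kidneys with its 95% interval (x axis) for 42 of the 44 tested members, grouped by family and ordered by size within it (y axis), in the colour of their transport role. Only Slc22a6 and Abcc4 have filled points, which mark an adjusted p under 0.05, and 38 of the 42 estimates lie within 0.5 of zero.

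By direction, 29 of 44 members had a positive log2 fold change (65.9%), against 50.1% of all genes tested, and their median was 0.12 against 0.0005 over all genes. No test was run over the members, since genes of one kidney are not independent. The median was 0.10 for the 19 tested Slc22a members, 0.14 for Slco, 0.28 for Abcb, 0.22 for the 2 Abcg members and -0.09 for Abcc, in which 4 of 7 members were negative. The Abcc median turned to 0.16 with a filter at a mean of 50, which leaves out the low members, and it also turned when 1 mouse was left out, to 0.077 without +/+ replicate 5, 0.0787 without KI/+ replicate 1 and 0.0008 without KI/+ replicate 3. It came close to zero without +/+ replicates 1, 3 or 4 (-0.0276, -0.0016 and -0.0023) and in the second run of codes (-0.0305), and was lowest without KI/+ replicate 2 (-0.16). Single mice also moved the other family medians. That of Slc22a was 0.18 without +/+ replicate 2, 0.16 without KI/+ replicate 3 and 0.17 with the run of codes as a covariate. Without KI/+ replicate 4 the Slco median was 0.0775 and the Abcb median 0.17, and without +/+ replicate 4 the Abcg median was 0.13. Uptake carriers had a median of 0.15, with 17 of 24 positive, and efflux carriers one of 0.06, with 6 of 11 positive. The efflux median was -0.003 under quantile normalization and 0.0234 with the filter at a mean of 50, while that of the uptake carriers lay between 0.11 and 0.21 over settings and at 0.0964 without KI/+ replicate 2. The SD between mice of such a median was 0.08 for uptake and 0.12 for efflux carriers, and the gap between the roles was not tested.

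The summed normalized count of all uptake carriers was 24273, 25002, 23702, 23275 and 23952 in +/+ mice and 29485, 26838, 28488, 28672 and 29641 in KI/+ mice. The KI/+ sums lay above the +/+ sums without overlap, at a ratio of 1.19, and without Slc22a6 they still ran from 20927 to 22796 against 18887 to 20329 (ratio 1.13). Such a sum rests on the few abundant genes, here Slc22a6, Slc22a12, Slc22a2 and Slc22a8. The summed count of the efflux carriers was 8200.1, 7894, 8497, 9193 and 8771 in +/+ mice and 9307, 9211, 9638, 9203 and 9200.1 in KI/+ mice. All KI/+ sums exceeded all +/+ sums by a small margin (ratio 1.09), and without Abcc4 the genotypes overlapped, at 7702.5 to 8926 in +/+ and 8198 to 9320.4 in KI/+ mice. These sums were not tested.

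Slc22a6 was set beside the carriers that supply its exchange and handle the same substrates, a list of 15 genes of which 14 were tested. In this list 3 genes were higher and 1 was lower in KI/+ mice, while 3.69% of all genes tested passed. The median log2 fold change was 0.31, against 0.0005 over all genes. At an unadjusted limma p under 0.05, 9 of the 14 passed, 8 higher and 1 lower, against 15.4% of all genes. The list was not tested as a set. DESeq2 called 6 of the 14 and edgeR 3, both with Slc13a3, Slc13a2 and Slc5a12 among them. Slc13a3 encodes NaDC3, the basolateral carrier that loads the cell with the dicarboxylates that OAT1 exchanges. It was measured at 6831, 6125, 5531, 5470.1 and 5502 in +/+ mice and 9737, 8202.5, 8173, 7512 and 9569.9 in KI/+ mice. It rose without overlap, by 0.55 on the log2 scale (SE 0.09, limma adjusted p = 0.0017), close to the 0.52 of Slc22a6. Slc13a2, the apical carrier that takes citrate and other dicarboxylates from the urine, was measured at 252, 182, 265, 249.8 and 364 in +/+ mice and 405, 377, 517, 418 and 408 in KI/+ mice and rose by 0.72 (limma adjusted p = 0.00606). Slc51b, a subunit of the basolateral steroid and bile acid carrier, rose by 0.53 (adjusted p = 0.0429), and its partner Slc51a had 0.58 without passing (adjusted p = 0.113). Slc5a12, an apical lactate carrier, fell by 0.95 (limma adjusted p = 0.00177), and the related Slc5a8 had 0.36 (adjusted p = 0.0578). By limma, the urate carriers Slc2a9, Slc17a1 and Slc17a3 had 0.01, 0.08 and 0.28 and did not pass. Slc17a3 and Slc5a8 were among the genes that DESeq2 called.

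Markers of the proximal tubule moved with genotype in both directions. All 5 markers of its S1 and S2 segments fell, namely Slc5a2 (-0.93), Slc5a12 (-0.95), Slc6a19 (-1.21), Slc7a7 (-0.81) and Gatm (-0.74), with limma adjusted p from 4.48e-05 to 0.0173. Their summed count was 3737 to 4353 in +/+ and 1973 to 2565 in KI/+ mice. Of the 5 tested markers of S3, 0 passed by limma, also without adjustment, and 0 by edgeR or DESeq2. In the general list of 8 proximal tubule genes, 3 of these same genes fell, Slc13a3 rose, and Lrp2, Cubn, Slc34a1 and Hnf4a had log2 fold changes between -0.09 and 0.08. The part of these markers in the values of Slc22a6 and Abcc4 was not tested.

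**Figure D4:**
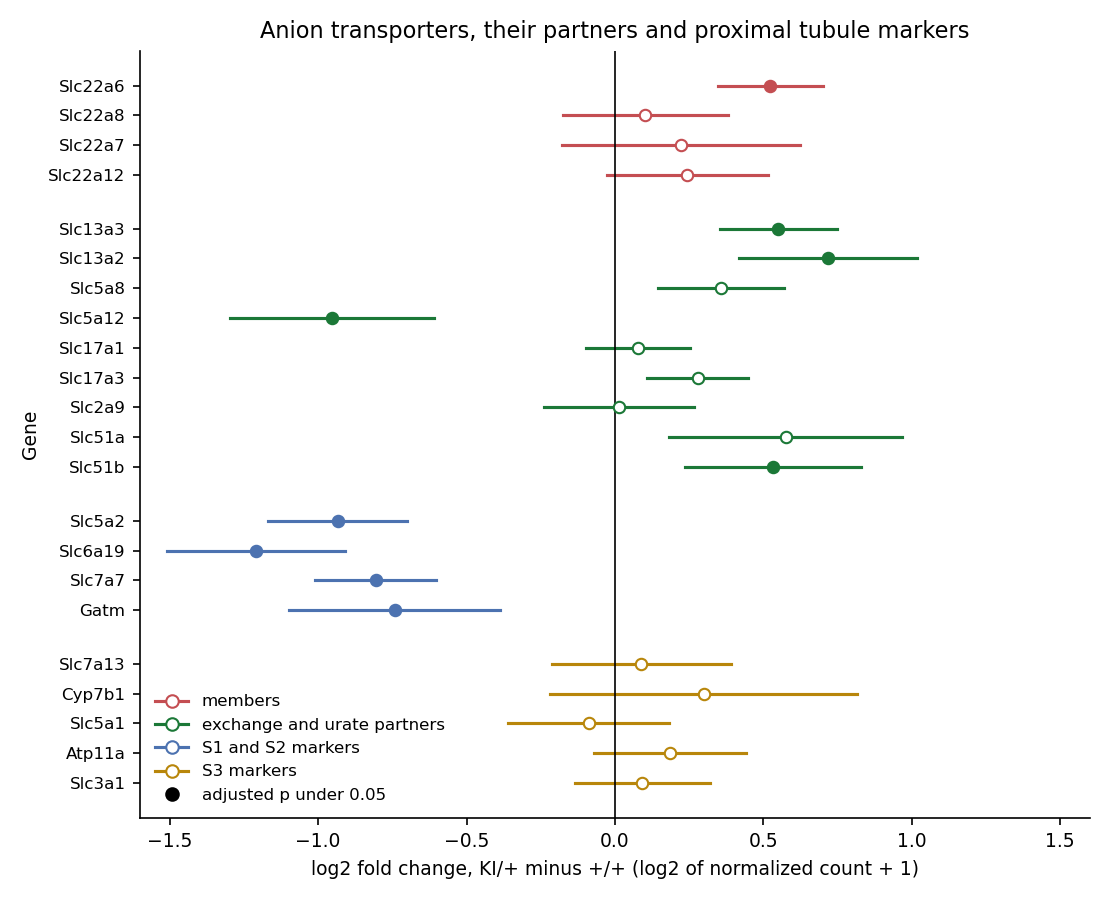
Log2 fold change of KI/+ minus +/+ kidneys with its 95% interval (x axis) for 4 anion uptake members, their exchange and urate partners, and markers of the proximal tubule segments (y axis), with filled points for an adjusted p under 0.05. Slc22a6, Slc13a3, Slc13a2 and Slc51b lie right of zero, while Slc5a12, which is also an S1 and S2 marker, and the other S1 and S2 markers lie between -1.21 and -0.74.

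Of the regulators listed for these families, among them Hnf4a, Nr1i2 (PXR), Ahr, Nfe2l2 (NRF2), Ppara, Esr1, Tfeb and Tfe3, 0 of 16 passed by limma, edgeR or DESeq2 (2 at an unadjusted limma p under 0.05, both lower, and a median log2 fold change of 0.03). Mitf had -0.34 (limma adjusted p = 0.114) and Ahr -0.47 (adjusted p = 0.142). The genotypes of Ahr did not overlap, at 46.5 to 57.5 in +/+ and 29.7 to 45.2 in KI/+ mice. Of all genes tested, 2.71% lay lower in this way. Of 8 scaffold and regulatory proteins of the apical membrane, Pdzk1ip1 fell by 0.48 (limma adjusted p = 0.00184) and 0 rose past the threshold. At an unadjusted limma p under 0.05, 4 of the 8 passed, 3 higher (Sgk1, Slc9a3r1 and Slc9a3r2) and 1 lower. Pdzk1, the PDZ protein that anchors URAT1 and other carriers, had 0.13 (adjusted p = 0.533).

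Abcc4 is known as a gene with a higher level in female than in male mouse kidney, and Slco1a1 as one that androgens raise, so both were set beside genes with a known sex bias. Transcripts of the Y-linked genes Ddx3y, Uty, Kdm5d and Eif2s3y were present in all 10 libraries. They summed to 658 to 762 in +/+ and 725 to 838 in KI/+ mice. By limma, edgeR or DESeq2, 0 of the 4 passed (1 at an unadjusted limma p under 0.05). Xist, the transcript of female cells in the same list, was not among the genes of the table. This is the pattern of male kidneys in all 10 libraries, although no label gives the sex. Cyp4a14, a fatty acid hydroxylase with more transcript in female kidney, was measured at 158, 176, 77.1, 92.2 and 155 in +/+ mice and 1499.6, 1513, 418, 764 and 3138 in KI/+ mice and was higher in KI/+ mice (log2 fold change 3.23, limma adjusted p = 4.02e-05). The KI/+ mice ranked alike for Cyp4a14 and Abcc4, from replicate 5 down through 2, 1 and 4 to 3. The +/+ mice did not, since Abcc4 fell from replicate 4 through 3, 5 and 1 to 2, and Cyp4a14 nearly the other way, from replicate 2 through 1, 5 and 4 to 3. Prlr, the prolactin receptor, was measured at 164, 131, 151, 205 and 201 in +/+ mice and 402, 393, 117, 288 and 409 in KI/+ mice, and its KI/+ mice followed that order but for an exchange of replicates 1 and 2 (log2 fold change 0.80, limma adjusted p = 0.114, although edgeR called it).

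Cyp4a12a, which androgens raise in the kidney, was measured at 728, 544, 7232, 1236 and 831 in +/+ mice and 2375, 3491, 8066, 5125 and 1849.8 in KI/+ mice and ranked the KI/+ mice exactly as Slco1a1 did, from replicate 3 down through 4, 2 and 1 to 5. In +/+ mice it ranked from replicate 3 through 4, 5 and 1 to 2, an order close to that of Abcc4, while Slco1a1 ran from 3 through 2, 4 and 1 to 5. The +/+ replicate 3 stood apart in Cyp4a12a (log2 fold change 1.55, limma adjusted p = 0.129). Of the 45 other members, 0 had the exact KI/+ order of Abcc4 and 1, Slc22a28, had its exact reverse. The members Slc22a5 and Slc22a23 came as close to the order of Abcc4 as Prlr did, differing by an exchange of adjacent mice. Slc47a1 and Slco1a1 differed from its reverse in the same way. Of the 7 listed genes with more transcript in male kidney, Cyp2e1 was higher in KI/+ mice (0.55, limma adjusted p = 0.00376), 0 were lower and 6 did not pass. Apart from Cyp4a12a, no other of the 7 had the KI/+ order of Slco1a1. Odc1, Cyp2j13 and Cyp7b1 were also highest in replicate 3, but Cyp2e1 and Slc7a13 were highest in replicate 4 and Kap in replicate 1. Cyp7b1 and Slc7a13 were also lowest in replicate 5, but Cyp2e1, Odc1 and Cyp2j13 were lowest in replicate 1 and Kap in replicate 4. Below the filter, the female-biased Slc7a12 ran from KI/+ replicate 1 through 5, 2 and 4 to 3. These are orders of 5 mice, given as a description, and the part of sex hormones in any of the values was not tested.

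**Figure D5:**
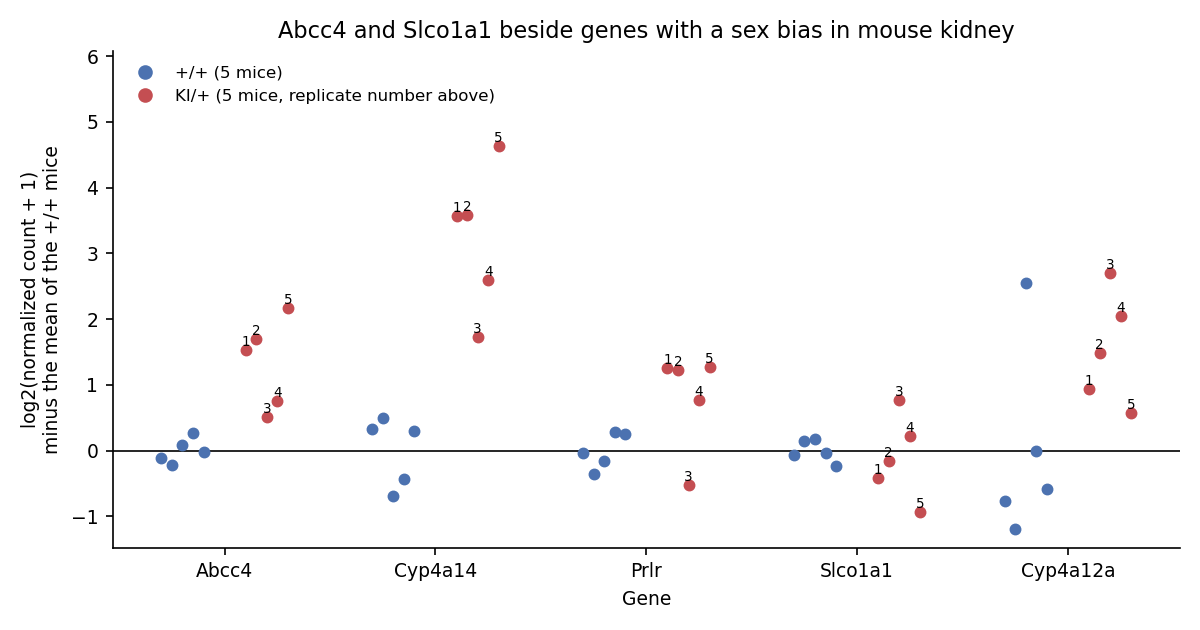
Log2(normalized count + 1) minus the mean of the +/+ mice (y axis) for Abcc4, Cyp4a14, Prlr, Slco1a1 and Cyp4a12a (x axis), with 5 +/+ mice in blue and 5 KI/+ mice in red under their replicate numbers. Replicate 5 is the highest KI/+ mouse for Abcc4, Cyp4a14 and Prlr and the lowest for Slco1a1 and Cyp4a12a, and replicate 3 holds the opposite place. The other listed genes with a sex bias are not drawn.

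Marker lists of other cells moved in part by limma. Umod fell and Cldn16 rose among 3 genes of the thick ascending limb, and all 3 of the distal convoluted tubule fell. Hsd11b2 rose among 3 of principal cells and Slc4a1 fell among 3 of intercalated cells. For principal cells, DESeq2 called all 3 genes and edgeR 0, and all 3 were higher at an unadjusted limma p under 0.05. By limma, edgeR or DESeq2, 0 of 13 podocyte, endothelial, leukocyte and stromal genes passed (3 at an unadjusted limma p under 0.05). Alb, a liver transcript, was higher in KI/+ mice (1.99, limma adjusted p = 0.00362). In KI/+ replicates 1 to 5, Alb was 168, 469, 80.9, 450 and 190 and Apoa2 was 40.8, 66.0, 25.2, 59.3 and 33.1. Both were highest in replicate 2. The 3 liver genes, of which Ttr was the most abundant, summed to 786 to 1042 in +/+ and 1099 to 4811 in KI/+ mice. The highest sum was that of KI/+ replicate 5, which stood apart in Ttr (4588, against 993 to 1348 in the other KI/+ mice) and in the stromal Col1a1 (729, against 230.2 to 294), and which was also highest in the stromal Dcn (818, against 281 to 451) and in Abcc4. Without this mouse the log2 fold change of Abcc4 was 1.13 (limma adjusted p = 0.00188) and that of Slc22a6 0.48 (adjusted p = 0.00235). Markers of fat and adrenal gland, tissues that lie against the kidney, were not among the genes of the table. The part of these cells in the members' values was not tested.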

How the data were processed

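Whole kidneys of 5 +/+ and 5 KI/+ mice of 3 months were profiled. The authors made QuantSeq 3′ FWD libraries, aligned reads with TopHat2 2.0.10 (Bowtie 1.0.0, SAMtools 0.1.19) to GRCm39, allowing multiple hits, counted reads on each gene by strand with HTSeq 0.6.1, and deposited a signal per gene, its count scaled by the library's size factor. All 10 columns were matched to a mouse, and 0 were left unmatched. Values were whole reads in 100% of cases after multiplication by the size factor (tolerance 0.01 reads).

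Values were tested on log2(value + 1) with limma 3.58.1 in R 4.3.3 (trend, two-sided, Benjamini-Hochberg) in genes with at least 10 normalized counts in at least 5 mice. edgeR 4.0.16 and DESeq2 1.42.0 on recovered reads were alternatives, beside other pseudocounts, filters, scalings, robust variances, the run of library codes as a covariate, the second run alone, and leaving out each mouse. On simulated counts of 13197 genes, limma called 97.0% of 200 genes changed by a log2 fold of 1, with 4.43% false calls. False calls were 4.88% by edgeR and 7.18% by DESeq2. Smaller changes were not simulated, while the median absolute log2 fold change of the 44 tested members was 0.19. The share recovered therefore does not apply to members with smaller changes. Whether it holds at the counts and spread of single members was not tested.

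Described by mouse were the members past the threshold, major kidney transporters, members without overlap, the 3 highest and lowest log2 fold changes, and members whose call changed with a setting. Outside the members, Rragc and genes of lists of partners, regulators and markers were named. The members and lists were chosen with earlier results of these data known. P values judge the difference between genotypes against the spread between mice, and do not measure that spread itself. Promoter windows and neighbouring genes come from RefSeq on GRCm38.p6, and stretches of 50 bases shared between genes from GENCODE transcripts on GRCm38, and no coordinates were converted. Depth covers counting error only. Some members and regulators are not reported here. Permutation tests and figures used python 3.11.15 with scipy 1.17.1 and matplotlib 3.10.9.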

Additional observations from a re-analysis of the deposited data

Results flagged for a closer look

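In 164 genes, each genotype of 5 mice was searched for a mouse far from the others, by the gap to its nearest neighbour over the range of the group. Of 328 groups, 22 held such a mouse, and chance alone marks about 1 in 20 groups.

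Among the members, Abcb1b was 57.3 normalized counts in KI/+ replicate 4, against 36.0 to 40.9 in the other KI/+ mice. Slc22a4 was 130.3 in KI/+ replicate 3, against 96.8 to 105 in the others. In +/+ replicate 3, Abcb8 was 89.6, against 123 to 137 in the other +/+ mice, and Slco4c1 was 137, against 67.3 to 85.8. These members did not pass the test between genotypes.

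In KI/+ replicate 5, Umod was 7760.0 (others 11868 to 13505), Slc7a13 was 5404 (others 9059.7 to 10545), Cyp7b1 was 265 (others 751 to 859.6) and Slc17a1 was 3028 (others 3525 to 3654). The same mouse had Ttr at 4588 (others 993 to 1348), Col1a1 at 729 (others 230.2 to 294) and Abcd2 at 41.8 (others 3.95 to 13.3), and also the highest Abcc4 and the lowest Slco1a1 of the KI/+ mice. Slc7a13 and Cyp7b1 are markers of the S3 segment with more transcript in male kidney.

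In +/+ replicate 3, Cyp4a12a was 7232 (others 544 to 1236), Nr1h3 was 161 (others 189 to 198) and Nr1h4 was 263 (others 350.2 to 384). In +/+ replicate 1, Sgk1 was 504 (others 255 to 291) and Pdzd3 was 1335.5 (others 1029 to 1117). Cyp7b1 was 757 in +/+ replicate 2 (others 435 to 509), and Apoa2 was 43.95 in +/+ replicate 4 (others 20.5 to 23.7). In KI/+ replicate 3, Nr1h3 was 252 (others 189.6 to 205) and Abca4 was 29.4 (others 11.9 to 15.2). Slc9a3r2 was 378 in KI/+ replicate 1 (others 284 to 305), and Abcf3 was 67.8 in KI/+ replicate 2 (others 44.1 to 50.4).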

How the results depend on the processing

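Abcc4 and Slc22a6 kept their direction under every setting run, and Abcc4 lost its call within the second run of library codes alone. With the run of codes as a covariate, 5 members passed, 4 higher and 1 lower, and 6.3% of all genes (832) against 3.69% (487) without it. Without the filter 1 member was lower. A filter at a mean of 50 turned the Abcc median to 0.16. When each mouse was left out in turn, 2.24% (without +/+ replicate 5) to 3.53% of all genes passed, with 2.35% without +/+ replicate 4, 2 to 3 members passed, and 0 to 1 as lower (without KI/+ replicate 5). The causes were not tested.

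Signs of members near zero turned. Quantile normalization gave -0.0027 for Abcg2 and -0.0096 for Slc22a30, the covariate gave -0.0823 for Slc22a21, and DESeq2 gave 0.0004 for Slco1a1. The second run of codes alone gave -0.0978 for Slc22a19, 0.0041 for both Slc22a28 and Slc22a5, -0.0001 for Slc22a8 and 0.0028 for Slco1a1. With mice left out, the log2 fold change ran from -0.0425 to 0.093 for Abcb10, -0.27 to 0.0077 for Abcb9, -0.16 to 0.0008 for Abcc1, -0.39 to 0.0787 for Abcc6, -0.18 to 0.46 for Slc22a19, -0.14 to 0.16 for Slc22a21, -0.0465 to 0.0474 for Slc22a28, -0.0363 to 0.0902 for Slc22a30, -0.12 to 0.0606 for Slc22a5, -0.0455 to 0.0353 for Slc47a1, -0.32 to 0.10 for Slco1a1 and -0.007 to 0.25 for Slco4c1. Of all 479 comparisons of a member's fold change with an alternative, 465 kept direction and side of the threshold, and 407 of 440 did so with a mouse left out. The fits by edgeR and DESeq2 without a filter, for Slc22a3 and Slc22a29, were added after seeing the data.

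With 5 mice a genotype, intervals of low members such as Slc22a21 or Abcc6 span more than a log2 unit, and changes within them were not detectable at this depth. No paired analysis was possible because the replicate numbers were given in accession order and pair no mice.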

Other observations

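ATP-driven transporters of the subfamilies A, D, E and F, which move lipids, peroxisomal fatty acids or act on ribosomes, gave 0 calls among 18 genes by limma, edgeR or DESeq2 (2 at an unadjusted limma p under 0.05), with a median log2 fold change of -0.06. Their sum was 5280.4 to 5527 normalized counts in +/+ and 5460.4 to 5779 in KI/+ mice. The peroxisomal Abcd3 had a log2 fold change of 0.20 (SE 0.0825, limma adjusted p = 0.244), and the values of its genotypes overlapped. Abca13 had one of -0.33 (SE 0.11, limma adjusted p = 0.124), with the KI/+ mice at 374 to 556 and the +/+ mice at 573 to 645 normalized counts.

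Of 9 tested transporters of nucleosides and folates, 0 passed by limma or edgeR (2 at an unadjusted limma p under 0.05) and 1 by DESeq2, and the median was 0.20. The proton-coupled folate transporter Slc46a1 and the reduced folate carrier Slc19a1 came closest, with limma adjusted p of 0.064 and 0.0778. Slc46a1 was the gene that DESeq2 called.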
